A study of Danio rerio with 6 samples.

Results

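The genes described here encode the Janus kinases, the STAT signal transducers, the interferon regulatory factors with the IRF2-binding proteins, the SOCS and CISH feedback inhibitors, and genes named for their induction by interferon. They were taken by gene name from the count table (names beginning with irf, stat, jak, tyk2, ifi, ifit, isg, rsad2, socs or cish, and the mx genes mxa to mxg), which gave 69 of 32059 rows. By role these were 5 Janus kinases, 8 signal transducers, 13 interferon regulatory factors, 4 IRF2-binding proteins, 14 feedback inhibitors and 25 induced genes. The rule used no measured value.

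Per the labels, RNA was sequenced from thyroid follicular cells, the hormone-making cells of the thyroid follicle, sorted from zebrafish aged 5 months. All fish carried Tg(tg:nls-EGFP), a nuclear green reporter under the thyroglobulin promoter, and a knock-in of the orange fluorescent protein mKO2 at pax2a, a transcription factor gene of thyroid development. The pax2a-high group (mKO2-high cells) and the pax2a-low group (mKO2-low cells) had 3 libraries each, and the labels name no treatment, sex or strain. The labels do not say whether replicates came from separate fish or pools, so p-values measure only the spread between these libraries, which may be technical.

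As background, cytokines and interferons bind receptors without a kinase of their own, and Janus kinases attached to those receptors phosphorylate STAT proteins, which then enter the nucleus. STAT2 works with IRF9 to switch on antiviral genes after type I interferon, whereas STAT3 serves the interleukin 6 family and STAT5 serves growth hormone, prolactin and erythropoietin. SOCS proteins are made in response and shut the kinases down. In thyroid cells, interferon and these cytokines are known chiefly from autoimmune and inflammatory thyroid disease in mammals.

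Total counts were 18014891 to 35403210 in pax2a-high libraries, against 6053741 to 10932845 in the pax2a-low libraries. The 10 thyroid markers found in the table summed to 160439 to 243756 CPM (counts per 1000000) in pax2a-high libraries, against 3648 to 33175 CPM in pax2a-low libraries, with nkx2.4a at 0 in both groups and slc26a4 at 0 in pax2a-low. Nearly all of this sum was tg, at 201605, 159450 and 242081 CPM in the pax2a-high libraries. All 8 of these markers that were tested lay above pax2a-low without overlap (21.4% of all genes tested did so). The 14 ionocyte and gill markers summed to 0.990 to 30.9 CPM in pax2a-high libraries, against 3403 to 5925 CPM in pax2a-low libraries. In the pax2a-low libraries atp1b1b alone made up 2432, 2254 and 2968 CPM, and slc12a10.2 made up 2074 CPM in replicate 2. Of the 8 tested, 6 lay below pax2a-low without overlap (8.11% of all genes tested did so) and 2 overlapped. The pax2a-low libraries thus held ionocyte and gill transcripts beside thyroid ones. For them the name thyroid follicular cells is that of the labels, and differences below need not be between 2 states of thyroid cells. Mitochondrial rows took 0.799 to 1.17% of counts in pax2a-high libraries, against 24.1 to 49.0% in pax2a-low libraries. The sorted gene pax2a was at 307, 437 and 586 CPM in pax2a-high libraries, against 2.34, 1.26 and 159 CPM in pax2a-low libraries, so pax2a-low replicate 3 stood apart from its group in this gene. In the pax2a-low libraries tg was at 5364, 3599 and 32823.5 CPM, and the EGFP reporter at 26.9, 46.7 and 178 CPM. That library was thus the highest of its group in tg and EGFP as well. The reporter mKO2, on which the cells were separated, was at 4.58, 34.4 and 18.6 CPM in pax2a-high libraries, against 0, 0.754 and 0 CPM in pax2a-low libraries, and in it that library did not stand apart. The pax2a log2 fold change was 3.03 (edgeR adjusted p = 0.595). Over the fits that leave out 1 library it ran from 2.41 to 7.88, the highest without pax2a-low replicate 3 (edgeR adjusted p = 7.11e-08). That library was singled out by its pax2a value, so this p-value is no test. Without any other library the edgeR adjusted p was 0.301 or above. In such bulk samples, fewer cells of a type and less RNA per cell cannot be told apart, and the part of cell makeup and of the mitochondrial share in the values below was not tested.

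Across the 45 members that passed the count filter, jak2b fell and ifi45 rose in pax2a-high cells, by edgeR's quasi-likelihood test with Benjamini-Hochberg adjustment over all 12524 genes tested, at a threshold of 0.05. With no count in any pax2a-low library, ifi45 entered the test only through the pax2a-high libraries, and its call is a description. The calls are 1 of 45 in each direction, or 2.22%, beside 1.12% of all genes tested that were higher, 1.46% that were lower and 2.58% in either direction. At an unadjusted p under 0.05, 2 members were higher (ifi45 and jak1), beside 9.76% of all genes tested, and 4 were lower (jak2b, stat5b, irf1b and irf7), beside 4.6%. DESeq2 called 1 member higher (again ifi45) and 3 lower, beside 820 and 511 of the 12524 genes tested. For limma these were 1 (ifi45) and 2 members, beside 126 and 312 genes. Of the 45, the 3 pax2a-high values lay above all 3 pax2a-low values in 9 (20%; 21.4% of all genes tested) and below them in 4 (8.89%; 8.11% of all genes tested). Both shares are near those of all genes, so they show nothing particular to this set. The median log2 fold change was 0.88 over the 45 members and 0.35 over all genes tested, and 31 of 45 members had a positive value (68.9%, against 57.1% of all genes tested). The filter keeps genes with counts in several libraries and these figures describe the members that passed it, not all 69. With DESeq2 size factors the median of all genes tested was 0.24 and 29 of the 45 members were positive, with stat2 among those that changed sign.

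**Figure D1:**
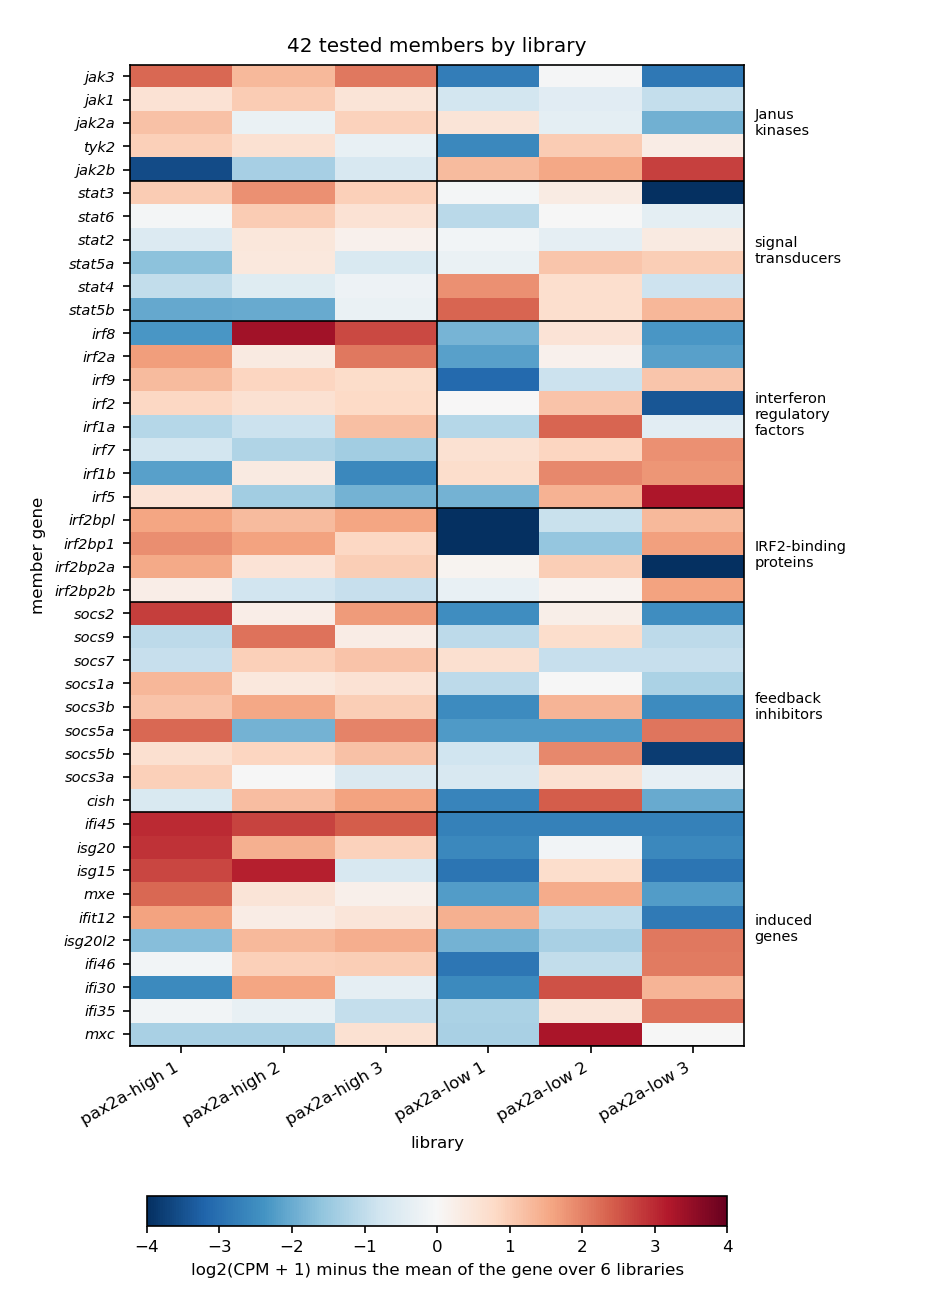
Level of 42 of the 45 tested members in the 6 libraries, as log2(CPM + 1) minus the gene's mean over the libraries, with pax2a-high libraries on the left and the colour scale capped at 4 in either direction. Within the Janus kinases jak1 and jak3 are higher in all 3 pax2a-high libraries while jak2b is lower in all 3, and only ifi45 among the induced genes is dark red in every pax2a-high column and equally blue in every pax2a-low column.

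The Janus kinase genes did not move together. The gene jak2b (ENSDARG00000018882), a zebrafish copy of the kinase gene for growth hormone, prolactin and erythropoietin receptors, was at 2.97, 17.8 and 29.2 CPM in pax2a-high libraries, against 113, 135 and 310 CPM in pax2a-low libraries. All 3 pax2a-high values lay below all 3 pax2a-low values. It fell with a log2 fold change of -3.48 (SE 0.88, adjusted p = 0.0461 by edgeR). The call was lost on leaving out pax2a-high replicate 1 (log2 fold change -2.96, edgeR adjusted p = 0.168), without pax2a-low replicate 2 (-3.71, 0.119) or 3 (-2.95, 0.106), and with a filter of 5 CPM in 3 libraries (0.0779). Over the 14 alternatives its log2 fold change ran between -4.19 and -2.95 and its adjusted p between 0.0022 and 0.168.

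The other copy, jak2a, was at 62.3, 22.1 and 51.6 CPM in pax2a-high libraries, against 38.7, 20.2 and 6.39 CPM in pax2a-low libraries, so its groups overlapped (log2 fold change 1.06 and SE 1.28, adjusted p = 0.869 by edgeR). Counts of jak2a per count of jak2b, a measure that library scaling cannot move, were 21, 1.24 and 1.77 in pax2a-high libraries, against 0.343, 0.150 and 0.0206 in pax2a-low libraries. Every pax2a-high ratio lay above every pax2a-low ratio. The pair was chosen after its values were seen, so this is a description with no test.

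The gene jak1, whose kinase serves gp130 and interferon receptors, was at 436, 586 and 421 CPM in pax2a-high libraries, against 175, 215 and 150 CPM in pax2a-low libraries. The groups were tight and did not overlap, with a log2 fold change of 1.42 and SE of 0.45, which after adjustment was not past 0.05 (edgeR adjusted p = 0.131, unadjusted p = 0.00651). Its value ran only between 1.25 and 1.53 over the alternatives, with adjusted p between 0.0754 and 0.379. The gene jak3, whose kinase pairs with the common gamma chain of lymphocyte cytokine receptors, was at 45.4, 22.3 and 40.1 CPM in pax2a-high libraries, against 0.391, 8.29 and 0.316 CPM in pax2a-low libraries. Here too the groups were apart, with a log2 fold change of 3.58 and a wide error (SE 2.02, adjusted p = 0.501 by edgeR). The kinase gene tyk2, of the type I interferon and interleukin 12 receptors, was at 142, 111 and 58.3 CPM in pax2a-high libraries, against 11.3, 147 and 89.3 CPM in pax2a-low libraries (log2 fold change 0.32 and SE 0.83, adjusted p = 0.960 by edgeR).

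None of the 8 signal transducer genes passed edgeR's test, and 1 was lower at an unadjusted p under 0.05, beside 4.6% of all genes tested. By DESeq2 1 passed as lower and by limma 0, beside 511 and 312 of all 12524 genes tested. That gene was stat5b (ENSDARG00000055588), at 9.46, 9.84 and 35.4 CPM in pax2a-high libraries, against 218, 68.5 and 110 CPM in pax2a-low libraries. The groups did not overlap, and the log2 fold change was -2.85 (SE 0.89, adjusted p = 0.121 by edgeR). It passed by DESeq2 (adjusted p = 0.0121) and by edgeR without pax2a-high replicate 3 (log2 fold change -3.79, adjusted p = 0.0471), with adjusted p up to 0.309 over the alternatives. Its relative stat5a was at 14.3, 63.6 and 30.5 CPM in pax2a-high libraries, against 38.7, 103 and 94.6 CPM in pax2a-low libraries, with overlap (log2 fold change -1.12 and SE 0.93, adjusted p = 0.754 by edgeR).

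The gene stat3 was at 84.4, 149 and 80.6 CPM in pax2a-high libraries, against 39.1, 52.0 and 1.5 CPM in pax2a-low libraries. Every pax2a-high value was above every pax2a-low value, and the lowest, in pax2a-low replicate 3, came from 19 counts. The log2 fold change was 1.76 (SE 1.03, adjusted p = 0.531 by edgeR). Counts of stat3 per count of stat5b were 8.92, 15.2 and 2.28 in pax2a-high libraries, against 0.180, 0.760 and 0.0137 in pax2a-low libraries, without overlap, again as a description of genes chosen after their values were seen. By the RefSeq gene order of the GRCz12tu assembly, stat3 and stat5a are neighbouring coding genes, and their log2 fold changes had opposite signs.

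STAT2, the partner of IRF9, had its gene at 53.8, 108 and 88.6 CPM in pax2a-high libraries, against 73.4, 61.5 and 101 CPM in pax2a-low libraries. Its log2 fold change was 0.09 (SE 0.71), and -0.10 with DESeq2 size factors. The interleukin 4 transducer gene stat6 (log2 fold change 1.02, SE 0.81) and the interleukin 12 transducer gene stat4 (-1.49, SE 1.29) overlapped between groups.

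**Figure D2:**
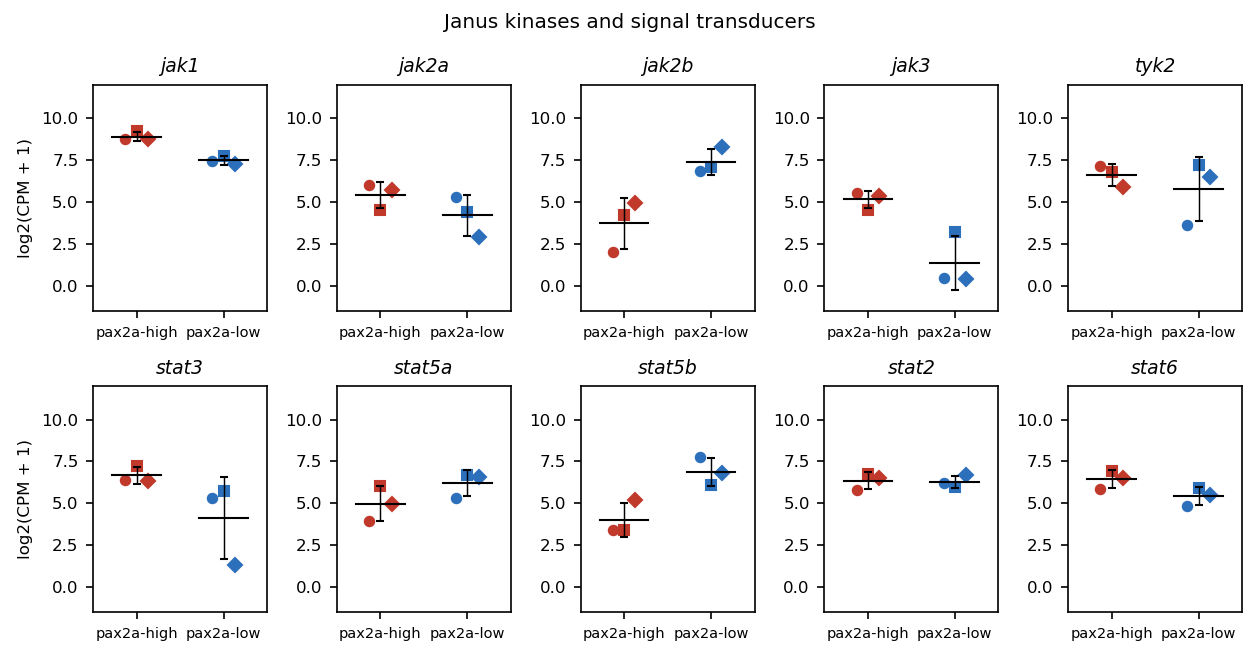
Levels of 10 Janus kinase and signal transducer genes as log2(CPM + 1), with pax2a-high libraries in red on the left and pax2a-low libraries in blue on the right of each panel (circle, square and diamond for replicates 1, 2 and 3, horizontal lines for the mean, bars for the SD over 3 libraries). The red and blue points are apart for jak1, jak2b, jak3, stat3 and stat5b and overlap for the remaining 5 genes.

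Among the interferon regulatory factors, 0 of 9 tested passed edgeR's test. At an unadjusted p under 0.05, 2 were lower in pax2a-high, beside 4.6% of all genes tested. DESeq2 and limma called 1 each lower, irf7 and irf1b, beside 511 and 312 of all 12524 genes tested. IRF7 drives interferon gene transcription during viral infection. The gene irf7 (ENSDARG00000045661) was at 29.3, 20.9 and 18.0 CPM in pax2a-high libraries, against 76.0, 90.0 and 178 CPM in pax2a-low libraries. The groups did not overlap, with a log2 fold change of -2.34 (SE 0.83, adjusted p = 0.181 by edgeR). The adjusted p was 0.0149 by DESeq2 and up to 0.431 over the alternatives.

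IRF1 activates interferon-induced and antigen presentation genes. The copy irf1b (ENSDARG00000043249) was at 11.3, 70.8 and 8.30 CPM in pax2a-high libraries, against 90.6, 210 and 188 CPM in pax2a-low libraries, again without overlap. Its log2 fold change was -2.44 (SE 0.87, adjusted p = 0.185 by edgeR). Within pax2a-high it was replicate 2 that stood nearest to pax2a-low. Without that library the log2 fold change was -4.02 and passed (edgeR adjusted p = 0.0118), as it did by limma (-3.10, adjusted p = 0.0364). The gene irf1b passed under 3 of the 14 alternatives, with adjusted p up to 0.336. The other copy, irf1a, had 0, 4 and 140 counts in pax2a-high libraries, against 0, 80 and 8 counts in pax2a-low libraries.

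IRF8 is a factor of macrophage, dendritic and B cell development. The gene irf8 had 0, 980 and 1057 counts in pax2a-high libraries, against 2, 50 and 0 counts in pax2a-low libraries, so 1 pax2a-high library had no count of it (log2 fold change 3.58 and SE 2.66, adjusted p = 0.699 by edgeR). IRF5, another factor of myeloid and B cells, had its gene at 70, 8 and 0 counts in pax2a-high libraries, against 0, 68 and 424 counts in pax2a-low libraries (log2 fold change -3.15, SE 2.86). The 15 macrophage and dendritic markers found summed to 18.9 to 164 CPM in pax2a-high libraries, against 602 to 1539 CPM in pax2a-low libraries. Most of this sum came from cd74a (409, 869 and 453 CPM in pax2a-low) and cd74b (83.6, 436 and 389 CPM), which are also interferon-induced genes. Only 4 of the 15 passed the filter, all with a negative log2 fold change, and 11 did not. Of the 4, mpeg1.2 was at 0.124, 5.94 and 3.07 CPM in pax2a-high libraries, against 88.6, 137 and 66.6 CPM in pax2a-low libraries. Its log2 fold change was -4.99 (SE 1.33, adjusted p = 0.0615 by edgeR), and DESeq2 and limma called it lower. Among the 11 that did not pass the filter, mpeg1.1 had 50 counts over pax2a-high and 14 over pax2a-low libraries. In pax2a-high the c1qa, c1qb, c1qc and havcr1 markers were at 0, and in pax2a-low c1qb, ccl34b.1 and flt3. The 7 markers shared by leukocytes summed to 5.94 to 55.2 CPM in pax2a-high libraries, against 23.0 to 57.8 CPM in pax2a-low libraries, with lcp1 at 0 in pax2a-low. The 9 B cell markers summed to 5.55 to 18.7 CPM in pax2a-high libraries, against 0 to 6.79 CPM in pax2a-low libraries, with cd79b, cd22, ighv1-4 and ighz at 0 in both groups. Of the pax2a-high sums, cxcr5 alone made up 12.9, 10.8 and 2.70 CPM. Only pax2a-high had counts of cd79a and pax5. The other way, blnk and ebf1b had 4 and 78 counts over the pax2a-low libraries, against 0 and 60 over the pax2a-high ones. The part of such cells in irf7, irf1b, irf8 and irf5 was not tested.

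Of irf2, irf2a and irf9, only irf2a had groups that did not overlap. IRF2 opposes IRF1 on many promoters. The copy irf2a had 218, 94 and 653 counts in pax2a-high libraries, against 0, 32 and 0 counts in pax2a-low libraries (log2 fold change 3.19, SE 2.75). At 4.82 CPM in pax2a-high replicate 2 and 4.02 CPM in pax2a-low replicate 2 its groups came close. The gene irf2 was at 21.4, 18.2 and 20.9 CPM in pax2a-high libraries, against 11.7, 26.8 and 0.158 CPM in pax2a-low libraries (log2 fold change 0.65, SE 1.96). The gene of the STAT partner irf9 was at 19.7, 14.8 and 13.2 CPM in pax2a-high libraries, against 0, 3.77 and 17.4 CPM in pax2a-low libraries (log2 fold change 1.17, SE 2.25). The interferon-inducing factor gene irf3 had 0, 2 and 189 counts in pax2a-high libraries, against 0 in every pax2a-low library, and did not pass the filter. The lymphocyte factor genes irf4a and irf4b and the gene irf10 also failed it, with 8, 64 and 4 counts over the pax2a-high libraries and 0 over the pax2a-low ones.

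The 4 IRF2-binding protein genes, which encode corepressors that partner IRF2, all overlapped between groups, and 0 passed by edgeR, DESeq2 or limma, with 0 at an unadjusted p under 0.05. The gene irf2bpl was at 82.0, 66.0 and 82.1 CPM in pax2a-high libraries, against 0, 14.1 and 68.5 CPM in pax2a-low libraries, and irf2bp1 at 77.1, 63.5 and 37.2 CPM in pax2a-high libraries, against 0, 6.28 and 65.8 CPM in pax2a-low libraries. In both, pax2a-low replicate 3 reached the pax2a-high range while pax2a-low replicate 1 had no count. The log2 fold changes of irf2bpl, irf2bp1 and irf2bp2a were 1.48 (SE 1.38), 1.30 (SE 1.5) and 1.07 (SE 1.74), and that of irf2bp2b was -1.13 (SE 0.94).

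All 9 tested feedback inhibitor genes had a positive log2 fold change (57.1% of all genes tested had one), yet 0 passed by edgeR, DESeq2 or limma and 0 had an unadjusted p under 0.05 by any of them. Their median was 1.48. Among these 9, only socs1a and socs3a had a count in every pax2a-low library. After thinning, detection of all genes tested was also lower in pax2a-low replicates 1 and 3 than in any pax2a-high library. The part of detection in these signs was not tested. With limma 8 of 9 were positive, under a median of 1.52 over all genes tested. Leaving out pax2a-high replicate 1 gave 10 positive of 11 tested, pax2a-high replicate 2 or 3 gave 8 of 9, pax2a-low replicate 1 or 3 gave 10 of 12, and pax2a-low replicate 2 gave 12 of 12. SOCS1 binds and inhibits Janus kinases directly. The gene socs1a (ENSDARG00000038095) was at 101, 53.3 and 58.7 CPM in pax2a-high libraries, against 18.4, 38.8 and 15.8 CPM in pax2a-low libraries, without overlap (log2 fold change 1.54 and SE 1.0, adjusted p = 0.619 by edgeR). SOCS3, the inhibitor of gp130 signalling, had its copy socs3a at 369, 191 and 128 CPM in pax2a-high libraries, against 124, 294 and 153 CPM in pax2a-low libraries. Those groups overlapped, with a log2 fold change of 0.27 (SE 0.57, adjusted p = 0.946 by edgeR). It was -0.22 without pax2a-high replicate 1, which was the highest of the 6.

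The gene socs2, of an inhibitor of growth hormone signalling, had 602, 112 and 611 counts in pax2a-high libraries, against 0, 44 and 0 counts in pax2a-low libraries. At 5.74 CPM in pax2a-high replicate 2 and 5.53 CPM in pax2a-low replicate 2 the groups came close without overlapping (log2 fold change 3.44 and SE 2.63, adjusted p = 0.718 by edgeR). CISH, a STAT5 target that blocks STAT5 binding sites on receptors, had its gene cish at 3.09, 13.6 and 17.9 CPM in pax2a-high libraries, against 0, 32.3 and 0.552 CPM in pax2a-low libraries (log2 fold change 0.08, SE 2.36). Its highest value was thus in pax2a-low replicate 2. The log2 fold change of cish was 5.22 without that library and -0.51 without pax2a-low replicate 3.

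The other tested inhibitors were socs3b, socs5a, socs5b, socs7 and socs9, which all overlapped between groups, with log2 fold changes between 0.34 for socs5b (SE 1.91) and 2.05 for socs9 (SE 2.83). The value of socs5b was -0.27 without pax2a-low replicate 3. A further 5 inhibitor genes did not pass the filter and had no count in any pax2a-low library. These were socs6b with 8, 118 and 196 counts, cishb with 9, 112 and 122, socs6a with 0, 14 and 54, socs4 with 0, 0 and 52, and socs1b with 0, 0 and 8 counts in the pax2a-high libraries. Set against the mean floor of 3 counts per pax2a-low library, the pax2a-high mean was 10.1-fold higher for socs6b and 8.14-fold higher for cishb. These values leave out the spread between libraries. The pax2a-low libraries also had fewer total counts, and the part of depth in their zeros was not tested. In pax2a-high replicate 1 socs6b and cishb were at 0.495 and 0.557 CPM. Both lie under the 0.586 CPM that 3 counts mean in pax2a-low replicate 1, so that library shows no excess.

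Of the 10 tested induced genes, ifi45 (ENSDARG00000017489) rose. It had 814, 802 and 1192 counts in pax2a-high libraries, against 0 in each pax2a-low library. It thus entered the test only through the pax2a-high libraries. The level was 41.8 ± 8.24 CPM in pax2a-high cells (SD, n = 3, edgeR adjusted p = 0.0418). Set against the mean floor of 3 counts per pax2a-low library, this mean was 104-fold higher, a value that leaves out the spread between libraries. This level was steady over the pax2a-high libraries, and 3.59% of all genes tested likewise had no count in any pax2a-low library. The call was lost on leaving out pax2a-high replicate 1 (edgeR adjusted p = 0.203), 2 (0.0876) or 3 (0.0642), without pax2a-low replicate 2 (0.0833) and with a filter of 5 CPM in 3 libraries (0.0568), and held by DESeq2 and limma, with adjusted p as low as 6.77e-08 over the alternatives. The similarly named ifi46 had 96, 265 and 480 counts in pax2a-high libraries, against 0, 22 and 384 counts in pax2a-low libraries, with overlapping groups. If reads are shared between ifi45 and ifi46, which was not tested, they could be split differently.

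ISG15 is a ubiquitin-like protein that is attached to other proteins in the interferon response. Its gene isg15 (ENSDARG00000086374) had 764, 1272 and 138 counts in pax2a-high libraries, against 0, 90 and 0 counts in pax2a-low libraries. At 47.2, 65.2 and 3.92 CPM in pax2a-high libraries, against 0, 11.3 and 0 CPM in pax2a-low libraries, the groups overlapped through pax2a-high replicate 3 and pax2a-low replicate 2 (log2 fold change 3.36 and SE 2.29, adjusted p = 0.650 by edgeR). The RNA exonuclease gene isg20 was at 42.5, 15.1 and 10.27 CPM in pax2a-high libraries, against 0, 4.52 and 0 CPM in pax2a-low libraries, without overlap (log2 fold change 3.90 and SE 2.62, adjusted p = 0.639 by edgeR). The gene ifi35 was at 20.4, 17.7 and 10.9 CPM in pax2a-high libraries, against 8.59, 31.4 and 102 CPM in pax2a-low libraries, with the highest value in pax2a-low replicate 3 (log2 fold change -1.54, SE 1.37). The lysosomal thiol reductase gene ifi30 (-1.23, SE 2.52) and the exonuclease-related gene isg20l2 (0.15, SE 2.61) overlapped between groups.

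The gene rsad2, which encodes viperin, had no count in any library, nor had mxg, ifit15 and ifitm5. The 7 Mx genes, which encode antiviral GTPases, summed to 358, 164 and 340 counts in pax2a-high libraries, against 0, 481 and 18 counts in pax2a-low libraries. Most of the pax2a-low reads were thus in replicate 2, where mxc had 178, mxe 98, mxa 86, mxf 80 and mxb 39 counts. In pax2a-high, mxe had 356, 112 and 154 counts, against 0, 98 and 0 in pax2a-low. The log2 fold changes were 1.38 for mxe (SE 2.65) and -3.11 for mxc (SE 3.04), and the 5 other Mx genes did not pass the filter.

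The 8 genes named ifit with a number, of proteins that bind foreign RNA, summed to 340, 378 and 859 counts in pax2a-high libraries, against 108, 24 and 0 counts in pax2a-low libraries. In CPM these sums were 21.03, 19.37 and 24.43 in pax2a-high libraries, against 21.09, 3.02 and 0 in pax2a-low libraries. The groups thus overlapped through pax2a-low replicate 1. Only ifit12 passed the filter, at 20.8, 7.79 and 8.99 CPM in pax2a-high libraries, against 18.0, 2.51 and 0 CPM in pax2a-low libraries (log2 fold change 0.88, SE 2.37). The gene ifit11 had 4, 216 and 277 counts in pax2a-high libraries, against 0, 2 and 0 counts in pax2a-low libraries, a depth-scaled pooled ratio of 90.3 whose 95% exact counting interval of 24.9 to 748 leaves out the spread between libraries. That interval also treats each count as independent. The gene ifitm1, of a membrane protein that restricts virus entry, had 0, 0 and 46 counts in pax2a-high libraries, against 0, 162 and 0 counts in pax2a-low libraries. The mx and ifit copies lie side by side in the RefSeq order (mxa with mxb, mxc with mxe, mxg with mxd, and the runs ifit11 to ifit9 and ifit16 to ifit14). Gene order does not show whether reads are shared between copies, which was not tested. If they are, the separate values are uncertain.

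**Figure D3:**
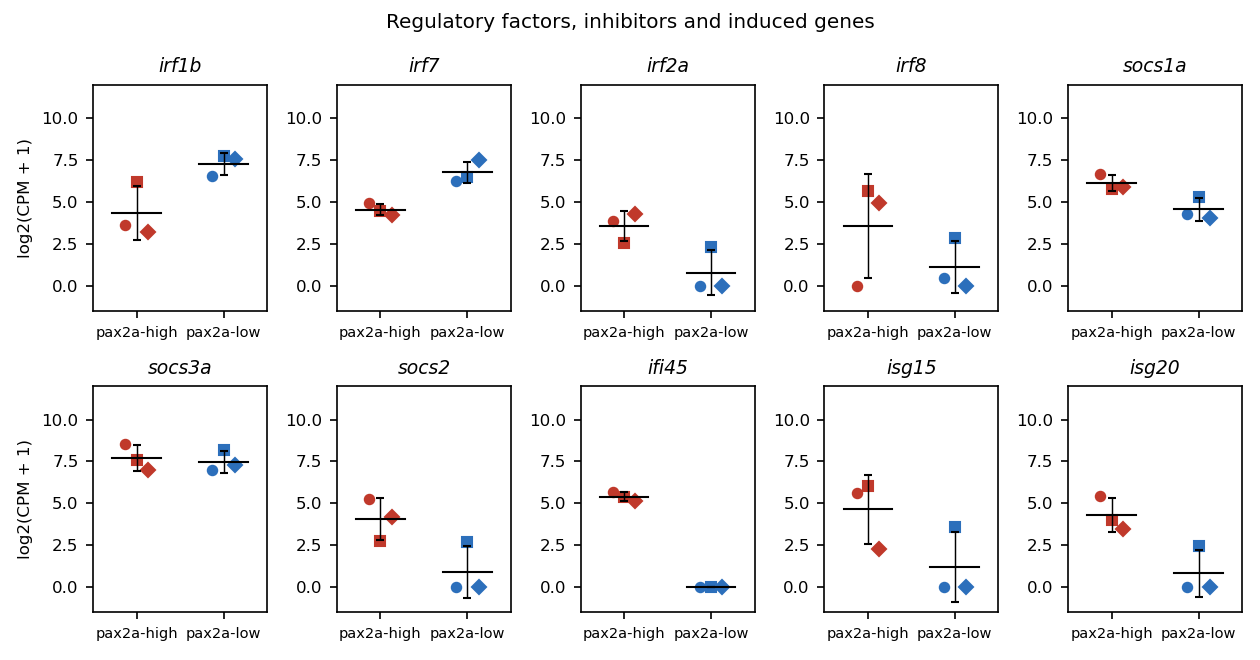
Levels of 10 genes of regulatory factors, feedback inhibitors and induced genes as log2(CPM + 1), with pax2a-high libraries in red on the left and pax2a-low libraries in blue on the right (circle, square and diamond for replicates 1, 2 and 3, horizontal lines for the mean, bars for the SD over 3 libraries). The 2 groups are apart for irf1b, irf7, irf2a, socs1a, socs2, ifi45 and isg20, with pax2a-low higher for irf1b and irf7, and they overlap for irf8, socs3a and isg15. For irf2a and socs2 the gap is narrow.

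**Figure D4:**
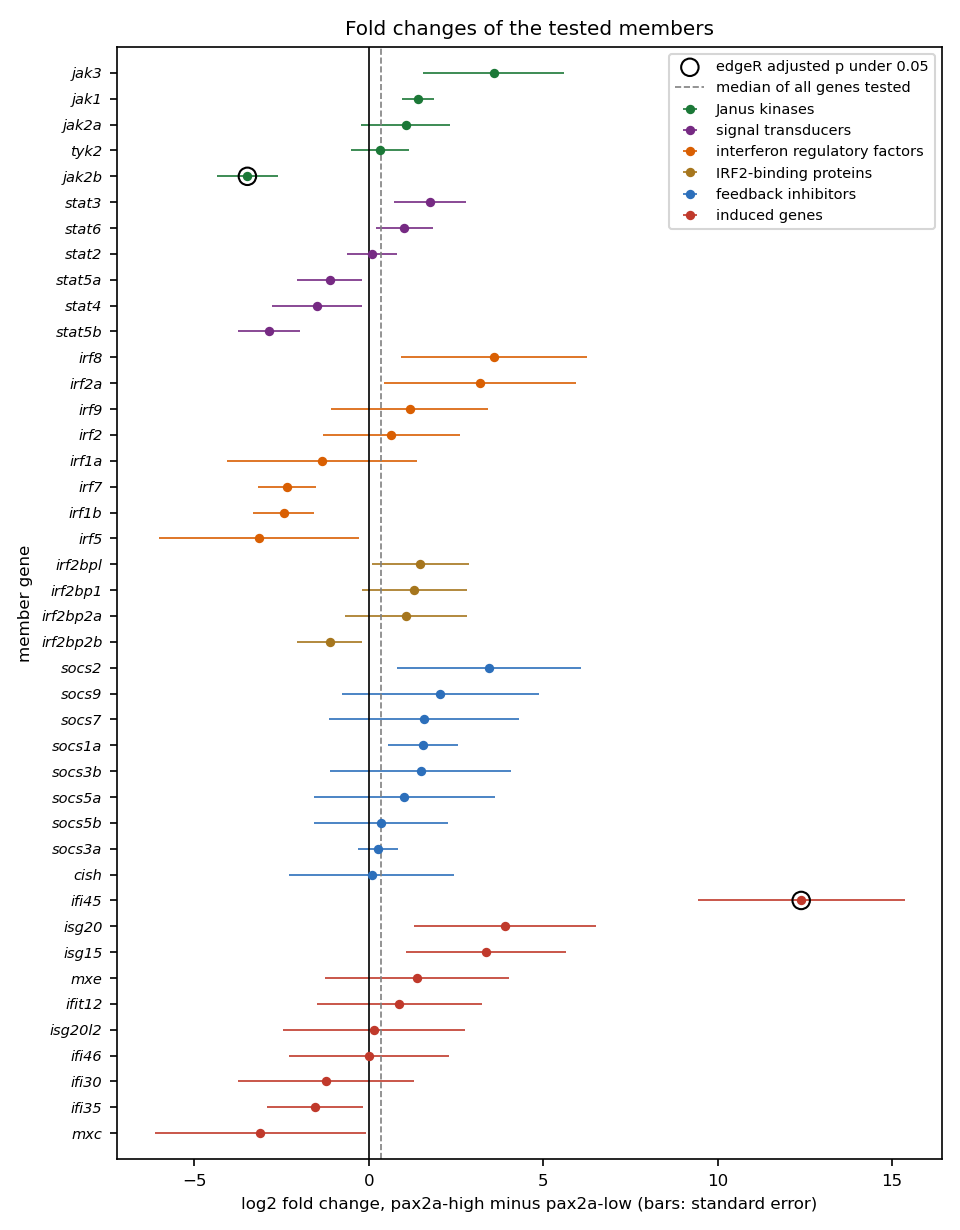
Log2 fold change, pax2a-high minus pax2a-low, of 42 of the 45 tested members, with bars for the standard error, coloured by role, and a dashed line at the median of all genes tested (0.35). The circled genes jak2b (-3.48) and ifi45 (12.39, a fitted value that depends on the prior count because pax2a-low had no count) passed edgeR's adjusted p of 0.05, and the bars of 20 members cross 0.

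Detection differed between libraries. Of the 69 members, 43, 54 and 60 had a count in pax2a-high libraries, against 28, 48 and 32 in the pax2a-low libraries. With every library thinned to 6053741 counts the numbers were 42, 52 and 56 in pax2a-high libraries, against 28, 47 and 32 in pax2a-low. Of the 45 tested members, 84.4, 95.6 and 97.8% had a count in the thinned pax2a-high libraries and 57.8, 93.3 and 71.1% in the thinned pax2a-low libraries. Of all genes tested, 78.6, 92.5 and 95.7% had a count in the thinned pax2a-high libraries and 56.7, 87.7 and 71.3% in the thinned pax2a-low libraries. Among the 45 tested members, 24 were at 0 in at least 1 pax2a-low library and 7 in at least 1 pax2a-high library. Of the 24 members that did not pass the filter, 4 had no count anywhere, 13 had counts in pax2a-high only, 2 (mxa and ifit10) in pax2a-low only, and 5 in both groups. Over all 32059 rows, 12333, 16200 and 19550 had a count in pax2a-high libraries, against 8392, 14215 and 11301 in pax2a-low libraries. These splits of members were not made over all rows, so they are not read as a result about the members.

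Upstream of the members, receptor genes were tested from a list of 50, of which 44 were found and 27 passed the filter. By edgeR 2 rose (7.41%, beside 1.12% of all genes tested) and 0 fell. At an edgeR unadjusted p under 0.05, 6 were higher and 1 lower, beside 9.76 and 4.6% of all genes tested. The list was chosen with earlier results of these data known, so these shares are a description with no test. One of the 2, crlf1a, encodes a secreted protein. DESeq2 called 5 higher, adding lifrb, osmr and il4r.1, and 2 lower, crfb12 and crfb16, genes named after these calls were seen, and limma called crlf1a alone. Over all 12524 genes tested, DESeq2 called 820 higher and 511 lower, and limma 126 and 312. The receptor gene lifra, which binds leukaemia inhibitory factor and pairs with gp130, was at 218, 129 and 127 CPM in pax2a-high libraries, against 6.64, 28.2 and 13.4 CPM in pax2a-low libraries (log2 fold change 3.30 and SE 0.81, adjusted p = 0.0417 by edgeR). The gene crlf1a, of a secreted partner of cardiotrophin-like cytokine, had 1115, 702 and 608 counts in pax2a-high libraries, against 0 in each pax2a-low library (edgeR adjusted p = 0.0467). Set against the mean floor of 3 counts per pax2a-low library, the pax2a-high mean of crlf1a was 102-fold higher, without the spread between libraries. Like ifi45, crlf1a entered the test only through the pax2a-high libraries. Both sets of libraries were far apart. The lifra call was lost on leaving out pax2a-high replicate 1 (adjusted p = 0.203 by edgeR) or pax2a-low replicate 2 (0.0549), and by limma (0.186). The crlf1a call was lost on leaving out pax2a-high replicate 1 (0.203) or 2 (0.0816), without pax2a-low replicate 2 (0.0932) and after thinning (0.0645). A filter of 5 CPM in 3 libraries ended both calls (edgeR adjusted p of 0.0612 for lifra and 0.0645 for crlf1a), and over all alternatives the adjusted p went down to 0.0015 for lifra and 3.35e-07 for crlf1a. The shared receptor gene il6st, which encodes gp130, was at 534, 747 and 419 CPM in pax2a-high libraries, against 109, 265 and 75.4 CPM in pax2a-low libraries, without overlap (log2 fold change 1.92 and SE 0.54, adjusted p = 0.0781 by edgeR). It passed under 5 of the 14 alternatives, with adjusted p between 0.0023 and 0.203. Leaving out pax2a-high replicate 3 (adjusted p = 0.0133 by edgeR) or pax2a-low replicate 2 (0.0451) was among these 5.

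Of 23 tested targets of STAT3 and STAT5, from a list of 31, 1 rose by edgeR (4.35%, beside 1.12% of all genes tested) and 0 fell. This list too was chosen with earlier results of these data known, so the share is a description with no test. DESeq2 called 3 higher (mycb, vegfaa and ccnd1) and limma called mycb and junba. Over all 12524 genes tested these tools called 820 and 126 higher. The gene mycb, of a MYC transcription factor, was at 934, 1003 and 714 CPM in pax2a-high libraries, against 144, 91.2 and 117 CPM in pax2a-low libraries (log2 fold change 2.91 and SE 0.44, adjusted p = 0.0011 by edgeR). Its call held under each of the 14 alternatives, with a log2 fold change between 2.71 and 3.11. The AP-1 gene junba (1.49 and SE 0.39, adjusted p = 0.0529 by edgeR) and the growth factor gene vegfaa (2.23 and SE 0.64, adjusted p = 0.0842 by edgeR) had no overlap between groups, and neither had the cyclin gene ccnd1 (3.56, SE 1.14, edgeR adjusted p = 0.134). The vegfaa value passed by DESeq2 (adjusted p = 0.0435) and by edgeR without pax2a-low replicate 1 (0.0442), with adjusted p up to 0.291 over the alternatives. The junba value passed under 7 alternatives, among them those without pax2a-high replicate 2 (edgeR adjusted p = 0.0339), pax2a-high replicate 3 (0.0142) or pax2a-low replicate 1 (0.0397). Over the alternatives the junba adjusted p ran between 0.0019 and 0.203. Other pathways also control these genes.

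Of the ligand list, 7 of 34 genes found passed the filter and 0 passed the test by edgeR, DESeq2 or limma. By edgeR 1 was higher at an unadjusted p under 0.05, beside 9.76% of all genes tested. That was ifnphi1, a zebrafish type I interferon gene, with 128, 50 and 85 counts in pax2a-high libraries, against 0 in each pax2a-low library (edgeR adjusted p = 0.211). Set against the mean floor of 3 counts per pax2a-low library, the pax2a-high mean of ifnphi1 was 10.8-fold higher, without the spread between libraries. It too entered the test only through the pax2a-high libraries. The gene il12a had 103, 59 and 182 counts in pax2a-high libraries, against 2, 0 and 0 counts in pax2a-low libraries (edgeR adjusted p = 0.496). The gene il6 had 0, 402 and 198 counts in pax2a-high libraries, against 0, 17 and 2 counts in pax2a-low libraries (log2 fold change 3.5, SE 2.93).

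Of 15 tested genes of nucleic acid sensing, 0 passed edgeR's test, 2 had an unadjusted p under 0.05, 2 passed by DESeq2 and 0 by limma. All of these were higher, beside 9.76% of all genes tested at that edgeR cut and 820 of 12524 by DESeq2. The double-stranded RNA receptor gene tlr3 was at 22.4, 24.6 and 18.7 CPM in pax2a-high libraries, against 0.781, 0 and 0.316 CPM in pax2a-low libraries (log2 fold change 5.91 and SE 2.64, adjusted p = 0.306 by edgeR). Its adaptor gene ticam1 was at 45.1, 65.8 and 34.04 CPM in pax2a-high libraries, against 2.73, 9.55 and 1.42 CPM in pax2a-low libraries (3.40 and SE 1.60, adjusted p = 0.347 by edgeR). The DESeq2 adjusted p was 0.0043 for tlr3 and 0.0222 for ticam1, and over the alternatives the highest was 0.655 and 0.921. The gene mavs, whose protein is the mitochondrial adaptor of the cytosolic RNA sensors, was at 0.124, 48.1 and 40.2 CPM in pax2a-high libraries, against 412, 131 and 425 CPM in pax2a-low libraries (-3.45 and SE 1.58, adjusted p = 0.411 by edgeR). The endosomal receptor and its adaptor were thus above pax2a-low in every pax2a-high library and the mitochondrial adaptor below it. These 3 were named as the genes of smallest p in the list. Of the 15, 2 lay above without overlap (13.3%; 21.4% of all genes tested) and 1 below (6.67%; 8.11% of all genes tested). Neither share exceeded that of all genes, so they show nothing particular to this list.

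Of 13 tested negative regulators outside the SOCS family, 0 passed edgeR's test, 1 had an unadjusted p under 0.05, and DESeq2 and limma each called 1, sh2b3. Over all 12524 genes tested DESeq2 and limma called 511 and 312 lower, and 4.6% were lower at that edgeR cut. SH2B3 (LNK) is an adaptor that restrains JAK2 signalling in blood cells of mammals. Its gene was at 48.0, 40.5 and 28.3 CPM in pax2a-high libraries, against 268, 153 and 156 CPM in pax2a-low libraries, without overlap (log2 fold change -2.30 and SE 0.65, adjusted p = 0.0781 by edgeR). It passed by DESeq2 (adjusted p = 0.0086), by limma (0.0237), after thinning and without pax2a-low replicate 3 (edgeR adjusted p of 0.0433 and 0.0440), with adjusted p up to 0.241 over the alternatives. The phosphatase gene ptpn11a had a log2 fold change of 1.11 (SE 0.84) and the ubiquitin ligase gene cbl one of -2.33 (SE 1.97).

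Of 27 tested interferon-induced genes outside the named families, 0 passed edgeR's test, 2 had an unadjusted p under 0.05, and DESeq2 and limma each called 2, cd74a and cd74b. All were lower, beside 4.6% of all genes tested at that edgeR cut, 511 of 12524 by DESeq2 and 312 by limma. The antigen presentation genes cd74a and cd74b are also macrophage markers. The gene cd74b was at 45.1, 63.2 and 9.16 CPM in pax2a-high libraries, against 83.6, 436 and 389 CPM in pax2a-low libraries (log2 fold change -2.95 and SE 0.78, adjusted p = 0.0597 by edgeR), and cd74a was at 58.3, 84.3 and 2.79 CPM in pax2a-high libraries, against 409, 869 and 453 CPM in pax2a-low libraries (-3.57 and SE 1.01, adjusted p = 0.127 by edgeR). Under the alternatives cd74b passed in 10 of 14 and cd74a in 7 of 14, with adjusted p up to 0.203 and 0.406. The class I light chain gene b2m was at 601, 730 and 326 CPM in pax2a-high libraries, against 712, 1126 and 1160 CPM in pax2a-low libraries, with overlap (-0.86 and SE 0.42, adjusted p = 0.383 by edgeR).

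**Figure D5:**
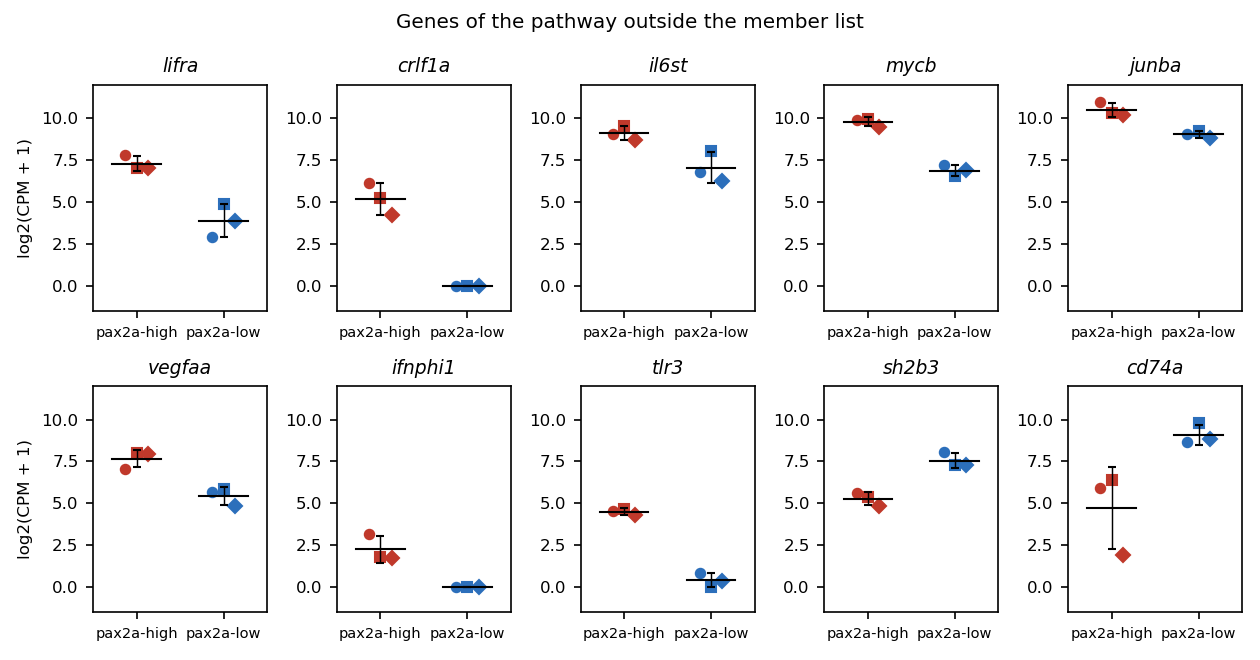
Levels of 10 genes upstream or downstream of the members as log2(CPM + 1), with pax2a-high libraries in red on the left and pax2a-low libraries in blue on the right (circle, square and diamond for replicates 1, 2 and 3, horizontal lines for the mean, bars for the SD over 3 libraries). The red points lie above the blue ones for lifra, crlf1a, il6st, mycb, junba, vegfaa, ifnphi1 and tlr3 and below them for sh2b3 and cd74a, and of these lifra, crlf1a and mycb passed the test.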

How the data were processed

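The deposited values were whole-number counts of reads for each gene, with no normalization by the authors. The submitters' processing notes name HISAT2, featureCounts and the GRCz11 build; their versions, the use of strand and how multiply mapped reads were counted are not given in the sources used here. Per the labels, tissue was dissociated enzymatically and libraries were sequenced on a NextSeq500. Even numbers made up 67.8 to 89.0% of the counts above 0 in a library, for a reason not stated. Reads are not separate molecules, and every interval or floor leaves out the spread between libraries and treats each count as independent. If reads were counted in pairs, which was not tested, the intervals are too narrow and the fold values against the floor too high.

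From the counts, edgeR 4.0.16 in R 4.3.3 gave TMM scaling, filterByExpr and quasi-likelihood fits (robust) with group as the only term, with Benjamini-Hochberg adjustment over 12524 genes. The standard error of a log2 fold change (pax2a-high minus pax2a-low) is its size divided by the root of the quasi-likelihood F. The common biological coefficient of variation was 1.50. A floor of 3 counts meant 0.0853 to 0.186 CPM for pax2a-high libraries, against 0.237 to 0.586 CPM in pax2a-low libraries. Fold values against the floor divide the mean of 1 group by the mean floor of the other. CPM are not scaled for length, so levels of different genes are not compared. Scripts were tested on simulated data.

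Alternatives were DESeq2 1.42.0, limma 3.58.1 (voom with quality weights), DESeq2 size factors in edgeR, no mitochondrial rows, no filter, 5 CPM in 3 libraries, a replicate block, thinning, and leaving out each library. The members and lists were chosen with earlier results of these data known. Named genes were members past the threshold, the 4 of highest mean CPM and 3 of smallest p in each role, and, for other lists, those past the threshold and the 3 of smallest p. The remaining members are given as counts or in brief, and a few members are not reported here by name. RefSeq order came from GRCz12tu, where 64 of 69 symbols matched. Markers of neutrophils, T and NK cells, endothelium, red blood cells and fibroblasts were summed as well. Neutrophil markers were at 0.102 to 9.21 CPM in pax2a-high libraries, against 1.56 to 63.8 CPM in pax2a-low libraries, and T and NK markers at 8.50 to 35.8 CPM in pax2a-high libraries, against 52.7 to 226 CPM in pax2a-low libraries. In the T and NK sum gata3 alone made up 90.2, 155 and 51.8 CPM in the pax2a-low libraries, cd8a was at 0 in every library, and il7r and lck had counts in pax2a-high libraries only. Endothelial markers were at 35.4 to 86.2 CPM in pax2a-high libraries, against 0.391 to 108 CPM in pax2a-low libraries, red blood cell markers at 11.8 to 22.1 CPM in pax2a-high libraries, against 0.391 to 51.3 CPM in pax2a-low libraries, and fibroblast markers at 20.2 to 79.8 CPM in pax2a-high libraries, against 1.58 to 80.3 CPM in pax2a-low libraries.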

Additional observations from a re-analysis of the deposited data

How the results depend on the processing

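By edgeR, 140 of all genes tested passed as higher and 183 as lower. Higher genes numbered 328 with no filter, 73 with a filter of 5 CPM in 3 libraries, 820 by DESeq2 and 425 with the replicate block, and lower genes 299 with no filter, 511 by DESeq2 and 312 by limma. Leaving out 1 library gave 40 to 270 higher and 120 to 253 lower. The 1 member called higher became 0 with the stricter filter and 0 to 1 without a library. The 1 called lower became 0 with that filter, 3 by DESeq2, 2 by limma, 2 with the replicate block and 0 to 2 without a library. By edgeR at an unadjusted p under 0.05 there were 6 of 45 members, beside 1222 higher and 576 lower of 12524 genes. Where counts of called members fell to 0, the same cut was read over members and all genes tested. The stricter filter gave 6 of 39 members, beside 850 higher and 552 lower of 9279 genes. Omitting replicate 1 of pax2a-high gave 8 of 52 members, beside 1698 and 640 of 14914 genes. Omitting replicate 2 of pax2a-low gave 14 of 50, beside 2264 and 583 of 14995. These counts are a description with no test.

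Same-numbered libraries had deviations correlated at 0.0385, 0.0480 and 0.0572 across genes. Each library correlated best with its own number, which is a hint from the data, but the labels do not say what a number marks. No pairing was therefore assumed in the main fit. The block is given as counts of calls, and it is also among the alternatives in the ranges and passes given per gene. The block fit gave the lowest adjusted p printed for jak2b (0.0022) and for il6st (0.0023).

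Over 47 named genes, 575 of the alternative values had the same sign and call, 45 passed where the reported value did not, 18 no longer passed, and 14 had the opposite sign. None of these 14 passed edgeR's, DESeq2's or limma's test. They were stat2 with DESeq2 size factors (-0.10), by DESeq2 (-0.10) and thinned (-0.0323), and socs3a by limma (-0.19). Without 1 library, the range was -0.11 to 0.35 for stat2, -0.22 to 0.69 for socs3a, -0.27 to 2.81 for socs5b, -0.51 to 5.22 for cish and -0.16 to 1.0 for tyk2. The cause of these changes was not tested. A filter left ifnphi1 and socs9 with a value under 12 of the 14 alternatives, and il12a and il6 under 13.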
